A study of Mus musculus with 58 samples.

Results

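A set of 10 heat shock protein genes of the cytosol and the mitochondria was followed over the day in the retinas of control and diabetic mice. They were taken by gene symbol from the table of raw read counts: Hspa1a, Hspa1b, Hspa8, Hsph1, Dnajb1, Hsp90aa1, Hsp90ab1, Hspb1, Hspd1 and Hspe1. These are 10 of the 52459 symbols listed, and all 10 were among the 19120 genes counted as expressed, which had a median above 4 normalized counts over all libraries.

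Heat shock proteins are molecular chaperones that hold, fold and refold other proteins. HSP70 proteins bind exposed stretches of unfolded proteins in a cycle driven by ATP, J-domain proteins such as DNAJB1 bring them their clients, HSP110 proteins such as HSPH1 exchange their nucleotide, and HSP90 proteins take over later folding steps of kinases and steroid receptors. Small heat shock proteins such as HSPB1 hold unfolded proteins without ATP, and HSPD1 with its lid HSPE1 forms the folding chamber of the mitochondrial matrix. In stressed cells the factor HSF1 binds heat shock elements, repeats of the unit NGAAN in alternating direction, and raises transcription of many of these genes. The retina carries a heavy protein load, because photoreceptors renew their outer segments every day.

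The groups allow comparisons between genotypes and between hours of the day. The control group held 30 libraries of wild-type male C57BL/6 littermates, with 5, 6, 5, 5, 5 and 4 libraries at ZT1, ZT5, ZT9, ZT13, ZT17 and ZT21, where ZT0 is lights on and ZT12 lights off. The diabetic group held 28 libraries of male mice heterozygous for the Ins2Akita mutation, with 5, 5, 5, 4, 4 and 5 libraries at the same times. The Akita mutation misfolds insulin and kills beta cells from early life, so it models insulin deficiency and not insulin resistance. Every mouse was 4 months old, was kept in 12 h of light and 12 h of dark, and was perfused with cold saline before its retina was dissected. Retinas of ZT13, ZT17 and ZT21 were dissected under dim red light, so hour and light of dissection cannot be told apart. Each library was total RNA of a single retina depleted of ribosomal RNA, and the methods call the libraries of a group biological replicates.

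Library totals ran from 7773117 to 22147398 counted reads. Retinal cell markers were present in every library, with sums of 15549 to 25399.7 normalized counts for 5 bipolar cell markers and 37057 to 55443 for 5 Muller glia markers. Markers of the pigment epithelium, which lies against the retina, summed to between 347 and 4602 normalized counts, and 3 control libraries (ZT1 replicate 6, ZT17 replicate 5 and ZT21 replicate 2) carried 21895 to 31846 normalized counts of lens genes against at most 690.5 in the other 55. Another 4 libraries stood apart on the first principal component of all expressed genes, which held 16.7% of the variance: control ZT9 replicate 4, control ZT17 replicates 1 and 3, and diabetic ZT17 replicate 3.

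Several members share sequence with other genes, which limits how well their reads can be assigned. Hspa1a (chr17:34969190-34972156, minus strand, GRCm38) and Hspa1b (chr17:34956436-34959238, minus strand) are neighbouring single-exon genes for the stress-inducible HSP70. Of the 50-base stretches of the Hspa1a transcript, 66.31% occur in another gene, most of them in Hspa1b, and an antisense gene overlaps its exon. The share was 52.65% for Hspa8 (chr9:40800984-40810087, plus strand), 58.51% for Hsp90aa1 (chr12:110690605-110702728, minus strand), 51.65% for Hspb1 (chr5:135887919-135889563, plus strand) and 44.78% for Hspd1 (chr1:55077835-55088243, minus strand). It was at most 8.2% for Hspe1 (chr1:55088132-55091307, plus strand), Hsp90ab1 (chr17:45567775-45573271, minus strand), Dnajb1 (chr8:83608193-83612653, plus strand) and Hsph1 (chr5:149614287-149636376, minus strand). Hspd1 and Hspe1 lie head to head with overlapping first exons on opposite strands, and whether the counting used strand is not given in the sources used here. Counts of these pairs are therefore uncertain where reads could be split.

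The upstream sequences of the 2 inducible HSP70 genes are shown because they make the near identity of the pair visible. They are the 250 bases before the RefSeq start on GRCm38.p6, with a 2-unit heat shock element in capitals.
Hspa1a, chr17:34972157-34972406, minus strand: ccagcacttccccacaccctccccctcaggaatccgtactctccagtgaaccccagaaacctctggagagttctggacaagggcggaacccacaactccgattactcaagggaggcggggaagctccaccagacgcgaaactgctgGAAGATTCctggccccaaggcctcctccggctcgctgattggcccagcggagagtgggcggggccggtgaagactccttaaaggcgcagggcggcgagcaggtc
Hspa1b, chr17:34959239-34959488, minus strand: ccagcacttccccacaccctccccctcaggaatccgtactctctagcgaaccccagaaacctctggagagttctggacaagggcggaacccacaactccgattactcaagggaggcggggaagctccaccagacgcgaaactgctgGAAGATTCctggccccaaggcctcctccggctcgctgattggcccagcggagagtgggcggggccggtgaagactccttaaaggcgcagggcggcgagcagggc
Counted from 1 at the 5′ end of the Hspa1a stretch, 3 bases differed in Hspa1b, C44T, T47C and T249G, and 98.8% of the bases were identical. The element, GAAGATTC, spanned positions -104 to -97 from the start in both.

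Heat shock elements were searched as GAANNTTC or TTCNNGAA, which each read the same on both strands, and as the 3-unit forms GAANNTTCNNGAA and TTCNNGAANNTTC, which contain the shorter ones. RefSeq windows from 250 bases before to 50 after a start were at hand for 7 of the 10 genes, with no entry for Hspa8, Hsp90aa1 and Hsp90ab1. A 2-unit element was found for 6 of these 7, and in 15.06% of all 32851 windows. A 3-unit element was found for Hsph1, Hspd1 and Hspe1, and in 0.603% of all windows. Neither window of Dnajb1 held one. The 7 genes had 10 windows, so these counts by gene and shares by window are not of like units. The sites are printed with 30 bases each, elements in capitals, to set their letters beside the daily profiles given further on.
Hspd1, chr1:55088053-55088082, minus strand: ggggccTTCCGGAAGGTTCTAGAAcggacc
Hspe1, chr1:55088053-55088082, plus strand: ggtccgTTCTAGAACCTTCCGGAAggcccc
Hsph1, site 1, chr5:149636287-149636316, minus strand: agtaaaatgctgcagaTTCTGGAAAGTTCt
Hsph1, site 2, chr5:149636351-149636380, minus strand: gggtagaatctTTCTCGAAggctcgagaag
Hspb1, chr5:135887801-135887830, plus strand: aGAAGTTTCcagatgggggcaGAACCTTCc
The first pair is 1 stretch of DNA read on both strands, upstream of the Hspe1 start and of 1 of 2 Hspd1 starts in RefSeq. The window of the other Hspd1 start, chr1:55088194-55088493, held no element, and the stretch lies downstream of that start. The stretch and both Hsph1 sites overlap annotated exons, and the Hspb1 site does not. The element of Hsph1 site 1 lies downstream of both RefSeq starts of Hsph1, at positions 36 to 48 and 15 to 27. That of site 2 lies upstream of both, at -33 to -26 and -54 to -47.

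Levels per length ranked the members alike in both genotypes. Length was the union of all annotated exons, which for Hsph1 was 7266 bases against 4764 in its longest transcript. Another choice of length could change the order, and counts of members that share sequence are uncertain. Values are in CPM, counts scaled to the library total after adjustment by edgeR's TMM factors, per kilobase of exon. Hsp90aa1, the more inducible HSP90, was the highest. It stood at 213 ± 34.4 in control libraries (mean ± SD, n = 30) and 202 ± 32.1 in diabetic libraries (n = 28). Hsp90ab1, the constitutive HSP90, followed at 142 ± 21.2 and 133 ± 17.2, and Hspa8, the constitutive HSP70, at 106 ± 26.9 and 97.2 ± 15.2. Hspd1 stood at 24.6 ± 2.12 in control retinas and Dnajb1 at 16.1 ± 2.68. Control levels of Hspe1 (11.6 ± 1.53), Hspa1a (8.88 ± 1.45), Hspa1b (7.88 ± 1.61) and Hsph1 (7.63 ± 1.39) each overlapped the next in order within 1 SD, as did Hsp90ab1 and Hspa8. Hspb1 was the lowest, at 1.82 ± 0.714 in control and 1.61 ± 0.576 in diabetic retinas.

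Most cytosolic chaperones had their highest means at ZT17 or ZT1 and their lowest from ZT5 to ZT13, and the mitochondrial pair passed no test of time. Over the 6 time points, 7 of the 10 members changed in control retinas and 4 in diabetic retinas (edgeR quasi-likelihood F test on 5 degrees of freedom, Benjamini-Hochberg adjusted p under 0.05 over 19120 genes), where 9.06% and 10.2% of all genes tested did. The diabetic count was 1 without diabetic ZT17 replicate 3 and 2 without diabetic ZT13 replicate 5. ZT5 is the middle of the light phase and ZT17 the middle of the dark phase. Between them 7 members rose in control and 2 in diabetic retinas, against 7.42% and 3.63% of all genes called higher at ZT17. In 25 of 58 fits that each left out 1 library, the diabetic count of this rise fell to 1. The median log2 difference, ZT17 minus ZT5, was 0.45 over the members and -0.03 over all genes in control retinas, and 0.24 over the members and -0.01 over all genes in diabetic retinas. In whole retinas, fewer cells of a type and less RNA per cell cannot be told apart.

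**Figure D1:**
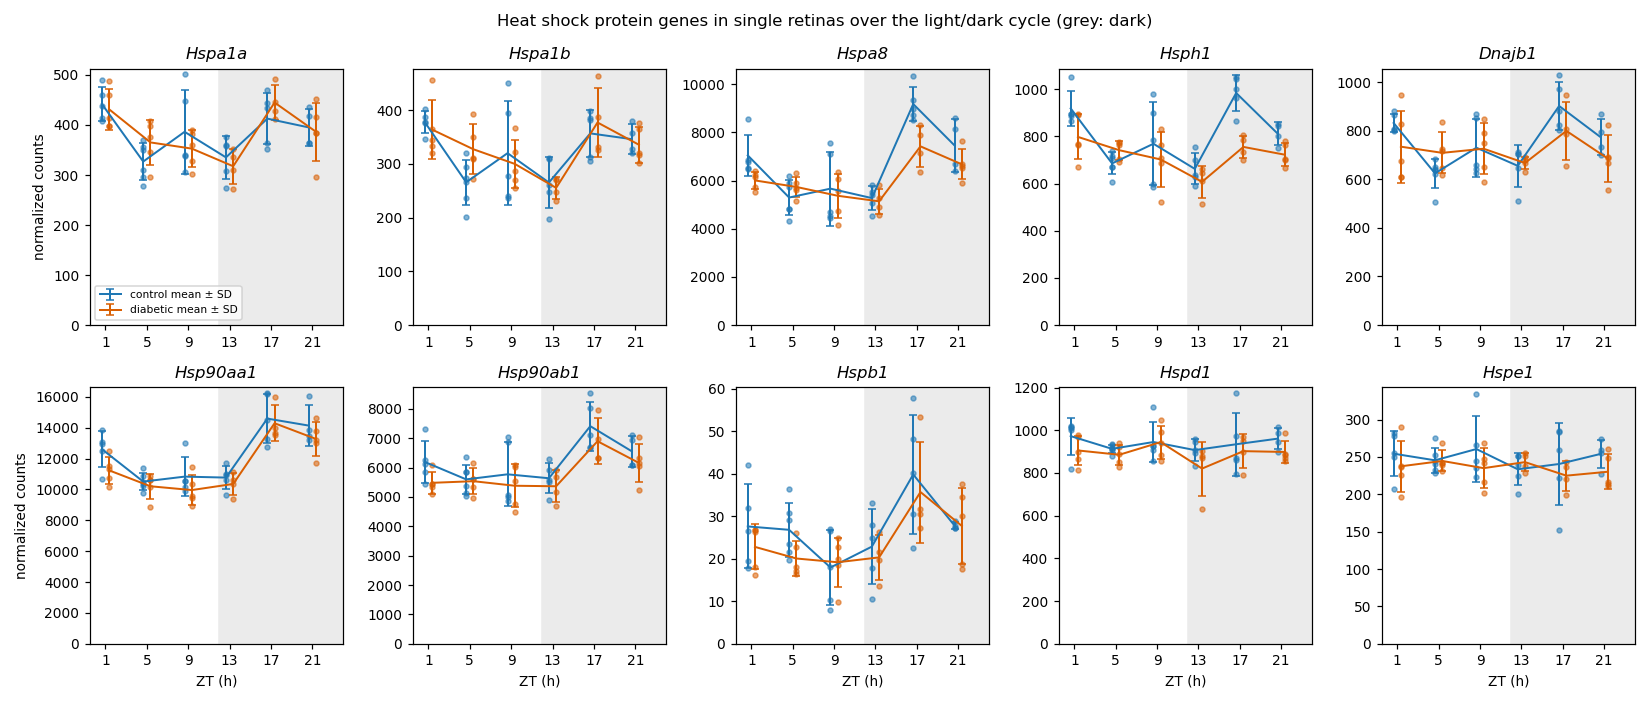
Normalized counts (y) of each gene in every library (points) against zeitgeber time (x, in h), with lines through the group means and bars for ± 1 SD, n = 4 to 6 per group. The dark phase is grey. In the panel of Hspa8 the 5 control retinas of ZT17 lie between 8504 and 10343, and the panels of Hspd1 and Hspe1 show no such rise.

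The constitutive HSP70, Hspa8, which also uncoats clathrin vesicles, had the largest of these rises among the members called in control retinas. Its 6 control libraries of ZT5 had a lowest value of 4316, a median of 5278 and a highest value of 6173 normalized counts, and the 5 of ZT17 had 9340.3, 8726, 10343, 8504 and 8988. In the diabetic group the 5 libraries of ZT5 had 5904, 5693, 5603, 6316 and 5167, and the 4 of ZT17 had 6363, 8291, 7149 and 7888. The 2 times did not overlap in either genotype, though diabetic ZT17 replicate 1 exceeded the highest ZT5 library by little. The log2 difference was 0.79 ± 0.11 (SE) in control, a fold of 1.72 with adjusted p = 9.91e-07, and 0.36 ± 0.12 in diabetic retinas, where it missed the threshold (adjusted p = 0.0545). DESeq2 called the diabetic rise (adjusted p = 0.0379). For all 6 times the adjusted p was 3.44e-07 in control retinas. The diabetic value was 0.0125, or 0.0564 without diabetic ZT17 replicate 3. Group means ran over 5274 to 9180.3 in control and 5139.6 to 7423 in diabetic retinas, lowest at ZT13 in both.

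Hspa1a and Hspa1b, the stress-inducible HSP70 pair, had high means at ZT1 as well as at ZT17. In control retinas Hspa1a had its highest mean at ZT1, 442 ± 33.9 (n = 5), and its lowest at ZT5, 327 ± 36.5 (n = 6). In diabetic retinas its highest mean was at ZT17, 445 ± 34.9 (n = 4), and its lowest at ZT13, 317 ± 35.2 (n = 4). Time of day was called for Hspa1a in both genotypes (adjusted p = 0.0163 and 0.019), and for Hspa1b in control retinas (adjusted p = 0.00889) but not in diabetic retinas (adjusted p = 0.0526). DESeq2 called Hspa1b there too (adjusted p = 0.0287), as did the fit with a GC and length correction (0.0455) and 12 of 58 fits without 1 library. For Hspa1b the control libraries of ZT5 had a lowest value of 201.1, a median of 270.3 and a highest value of 321, and those of ZT17 had 313, 386, 399, 381 and 305. These ranges overlapped, and the log2 difference was 0.43 ± 0.13 (adjusted p = 0.0191). That of Hspa1a was 0.33 ± 0.11 in control (adjusted p = 0.028), and the calls of both were lost without control ZT5 replicate 1 (adjusted p = 0.0828 and 0.0697) or control ZT17 replicate 3 (0.0921 and 0.0735). Hspa1a alone also lost it without control ZT5 replicate 2 (0.0672), ZT5 replicate 3 (0.0509) or ZT17 replicate 2 (0.0672), and its diabetic time-of-day call without diabetic ZT17 replicate 3 (0.0532) or ZT13 replicate 5 (0.0578). With a GC and length correction the control differences were 0.22 for Hspa1a (adjusted p = 0.163) and 0.32 for Hspa1b (0.0526). Under that correction time of day was not called for Hspa1a in control (adjusted p = 0.0897) or diabetic retinas (0.051).

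The partners of HSP70 were higher at ZT17 than at ZT5 in control retinas and not detectably so in diabetic ones. Hsph1, the HSP110 exchange factor, had a lowest value of 608, a median of 690.0 and a highest value of 737 normalized counts in control libraries of ZT5 and 863, 1052, 963, 999.8 and 1041 in those of ZT17. In diabetic libraries it had 761, 776, 773, 691 and 704 at ZT5 and 701, 732, 783 and 805 at ZT17. The control groups were apart and the diabetic groups overlapped almost fully. The log2 difference of Hsph1 was 0.51 ± 0.10 in control (adjusted p = 0.000156) and 0.02 ± 0.11 in diabetic retinas (adjusted p = 0.938, 95% interval -0.19 to 0.23). Its control mean at ZT13 was 662 ± 65.9 (n = 5), the lowest of the 6 times.

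Dnajb1, the J-domain protein that serves inducible HSP70, also rose in control retinas. Its control libraries had a lowest value of 508, a median of 641 and a highest value of 683 at ZT5 and 803, 973, 1029, 822 and 880.3 at ZT17, with no overlap. Diabetic libraries had 835, 718, 726, 647 and 617 at ZT5 and 785, 947, 656 and 808 at ZT17, and these ranges overlapped. Its log2 difference was 0.52 ± 0.11 in control (adjusted p = 0.000564) and 0.17 ± 0.12 in diabetic retinas (adjusted p = 0.444). Over the 6 times the adjusted p-values of Hsph1 were 4.75e-05 in control and 0.131 in diabetic retinas, and those of Dnajb1 0.00232 and 0.688. Whether the genotypes differed in these time courses is a separate test, given with the genotype comparison.

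Hsp90aa1 was higher at ZT17 than at ZT5 in both genotypes. Its control libraries had a lowest value of 9751, a median of 10411 and a highest value of 11396 at ZT5 and 12747, 16256, 13296, 14492 and 16188 at ZT17. Its diabetic libraries had 10604, 10595, 10849.5, 10143 and 8849 at ZT5 and 14001, 13673, 13502 and 16004 at ZT17. No ZT17 library of either genotype was as low as any ZT5 library of that genotype. The log2 differences were 0.47 ± 0.07 in control (adjusted p = 1.31e-05) and 0.48 ± 0.08 in diabetic retinas (adjusted p = 7.85e-05). At ZT13, 1 h after lights off, the means were 10772 ± 749.5 (n = 5) and 10359 ± 733 (n = 4), near those of ZT5. The level was still high at ZT21, with means of 14142 ± 1312 (n = 4) and 13277 ± 1089.8 (n = 5), and the test over 6 times gave adjusted p-values of 1.56e-06 and 1.85e-06.

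Hsp90ab1 rose by less. Control libraries had a lowest value of 5031, a median of 5600.0 and a highest value of 6359 at ZT5 and 8035, 7102, 8534, 6672 and 6709.8 at ZT17, and diabetic libraries had 5600.3, 5350.0, 5621, 6149 and 4961 at ZT5 and 6321, 7962, 6317 and 6989.6 at ZT17. The times did not overlap within a genotype. Log2 differences were 0.40 ± 0.09 (adjusted p = 0.00228) and 0.31 ± 0.10 (adjusted p = 0.0495, at the threshold), and time of day gave 0.00915 in control and 0.0485 in diabetic retinas. Of all members Hsp90ab1 followed the first principal component most closely (Pearson r = -0.82 over 58 libraries, a description). Without the 4 libraries at its end, an alternative chosen after seeing the data, the adjusted p for time of day was 0.091 in control retinas and 0.181 in diabetic ones. Without control ZT17 replicate 3 alone it was 0.0637 in control. In diabetic retinas leaving out 1 library ended the call for time of day in 33 of 58 cases, most of all diabetic ZT17 replicate 3 (adjusted p = 0.261), and the call for ZT17 minus ZT5 in 25 of 58.

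**Figure D2:**
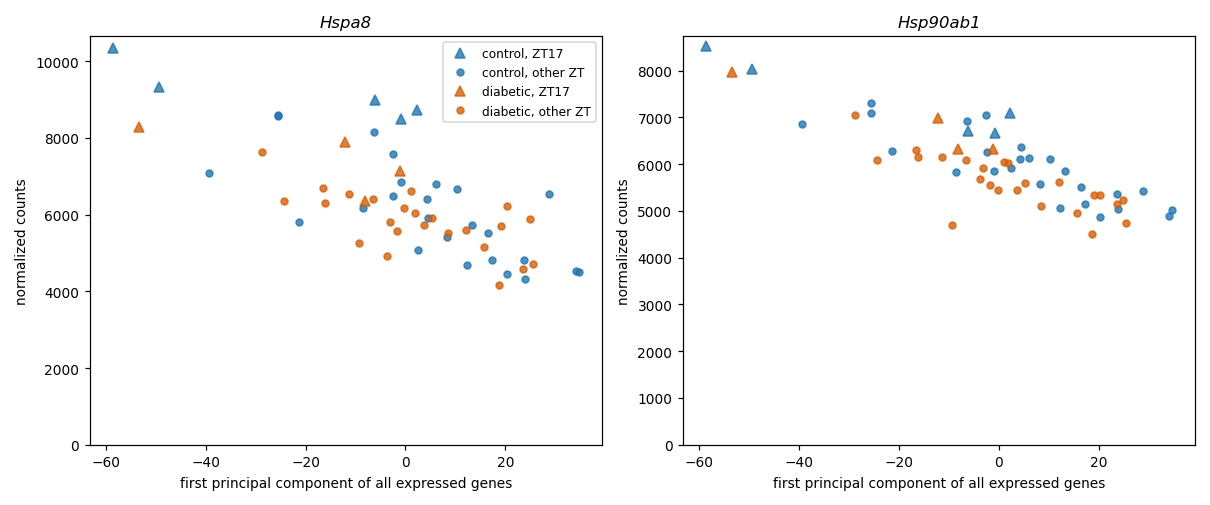
Normalized counts (y) of Hspa8 and Hsp90ab1 in each of the 58 libraries against the first principal component of all 19120 expressed genes (x, score without unit), with ZT17 libraries as triangles. Libraries with low scores tend to have high counts of both genes (r = -0.73 and -0.82), and 3 of the 4 lowest scores are of ZT17.

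Hspb1, the small heat shock protein HSP25, was counted at low depth and varied widely between libraries. Control libraries had a lowest value of 19.7, a median of 26.3 and a highest value of 36.3 normalized counts at ZT5 and 40.3, 22.4, 57.8, 30.5 and 48.1 at ZT17, and diabetic libraries 17, 18.1, 16.4, 22.7 and 26 at ZT5 and 30.6, 53.3, 27.2 and 31.7 at ZT17. The control ranges overlapped and the diabetic ranges did not. Its log2 differences of 0.55 ± 0.26 and 0.80 ± 0.29 did not pass (adjusted p = 0.135 and 0.0799), nor did time of day (0.0761 and 0.155). DESeq2 called time of day in control retinas (adjusted p = 0.0416). The control p for time of day fell to 0.0269, 0.0468 and 0.0385 without control ZT17 replicate 2, ZT13 replicate 4 or ZT9 replicate 5, and was 0.205 without the 3 libraries that held lens RNA, in which Hspb1 had 27.8 to 48.1 normalized counts.

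The mitochondrial chaperonin genes did not pass any test of time. Hspd1 group means ran over 907 to 973 normalized counts in control and 821 to 944 in diabetic retinas, and those of Hspe1 over 234 to 261 and 225 to 245. Hspd1 had a lowest value of 882, a median of 913 and a highest value of 935 in control libraries of ZT5 and 793, 1174, 872, 971 and 861 in those of ZT17, so that the later values lay on both sides of the earlier ones. The log2 difference of Hspd1 was 0.03 ± 0.08 in control (95% interval -0.13 to 0.18) and 0.02 ± 0.09 in diabetic retinas (-0.15 to 0.19). For Hspe1 it was -0.04 ± 0.11 (-0.25 to 0.17) and -0.12 ± 0.12 (-0.35 to 0.11). Adjusted p-values over the 6 times were 0.904 and 0.657 for Hspd1 and 0.843 and 0.971 for Hspe1. Both genes share the stretch printed above with a 3-unit element.

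**Figure D3:**
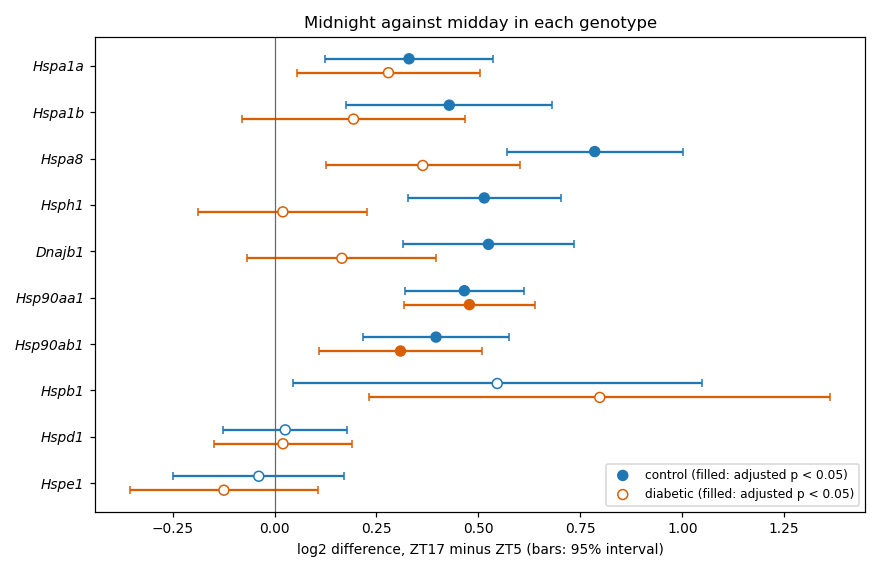
Log2 difference, ZT17 minus ZT5 (x), of each gene (y) in control and diabetic retinas from the edgeR fit, with bars for the 95% interval and filled points where the adjusted p is under 0.05. Filled points are 7 of 10 in control and 2 of 10 in diabetic retinas, and Hspd1 and Hspe1 have intervals across zero in both.

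Other values also differed between ZT5 and ZT17. Of 6 expressed pigment epithelium markers, 4 were called higher at ZT17 than at ZT5 in control retinas and 5 in diabetic ones. The sum of the 7 listed was 494 to 2168 normalized counts at ZT5 and 1708 to 3011 at ZT17 in control libraries. In diabetic libraries it was 347 to 505 at ZT5 and 1029 to 2669 at ZT17. This sum was not highest at ZT17. Its control medians at ZT1, ZT13, ZT17 and ZT21 were 911, 2566, 2400 and 3061. The diabetic medians at those times were 833, 2750.5, 1906 and 3193. None of the listed pigment epithelium markers was at 0 in all libraries. Of 5 bipolar cell markers, 4 were higher in control and 2 in diabetic retinas. Their sums were 19532 to 21550.1 at ZT5 and 23045 to 25399.7 at ZT17 in control libraries. In diabetic libraries they were 17637 to 20520.5 at ZT5 and 21607.3 to 24224.7 at ZT17. Of 5 amacrine markers 1 was higher in control retinas. Of 5 endothelial markers 1 was higher in each genotype and 1 was lower in control retinas. Of 5 Muller glia markers 1, Glul, was called higher in control retinas (0.28, adjusted p = 0.00339) but not in diabetic retinas (0.22, 0.0568). The control sums of all 5, 39642 to 44840.3 at ZT5 and 48024 to 53900.4 at ZT17, did not overlap, while the diabetic sums, 37057 to 49127 and 46236 to 55443, did. Lower at ZT17 were 2 of 5 cone markers in control and 1 in diabetic retinas, Arr3 in both, and 1 of 6 rod markers, Sag, in both (-0.21 and -0.42). Both expressed lens markers were called higher at ZT17 in control retinas, where replicate 5 held lens RNA. The part of these markers in the members' rise was not tested. Without the 4 libraries apart on the first component, 4 of the 7 control calls between ZT17 and ZT5 held (Hspa8, Hsph1, Dnajb1 and Hsp90aa1), and the adjusted p rose to 0.0506 for Hspa1a, 0.0521 for Hspa1b and 0.0712 for Hsp90ab1. The log2 differences were then 0.38 for Hspa1a, 0.45 for Hspa1b and 0.29 for Hsp90ab1. Without ZT17 altogether, time of day was called for Hspa1a, Hspa1b, Hspa8, Hsph1 and Hsp90aa1 in control retinas and for Hsp90aa1 in diabetic retinas.

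Rhythms of 24 h were called by the study's threshold, an empirical JTK p under 0.05 without adjustment, and its minimum fold, taken here between the highest and the lowest library. With the fold taken between time point means the same numbers of members, 8 and 6, were called. In all 8 members were rhythmic in control retinas (all but Hspd1 and Hspe1) and 6 in diabetic retinas (also without Hsph1 and Dnajb1), against 21.8% and 23.9% of all genes. After adjustment, which 8.23% of all genes passed in control and 10.3% in diabetic retinas, 2 members held in each genotype, Hspa8 (adjusted p = 0.00161 in control and 0.0032 in diabetic retinas) and Hsp90aa1 (0.00123 and 0.000698). The p-values of Hsph1 were 0.00522 in control and 0.11 in diabetic retinas, and those of Dnajb1 0.013 and 0.975. Leaving out 1 library ended the control call of Hspa1a in 14 of 30 cases and that of Hspb1 in 4 of 30 (ZT9 replicates 1 and 2, ZT17 replicates 3 and 5). Hspa1b lost its control call without ZT1 replicate 1 (permutation p = 0.0544) and its diabetic call without ZT9 replicate 1 (0.0551), ZT9 replicate 5 (0.0551) or ZT13 replicate 4 (0.0511). Hsph1 gained a diabetic call without ZT9 replicate 3 (0.0433) or ZT1 replicate 4 (0.0431). Without the 3 libraries with lens RNA the control p was 0.0598 for Hspa1a and 0.0669 for Hspb1, and without the 4 libraries apart on the first component it was 0.196 for Hspb1.

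The fitted 24 h cosines of the rhythmic members peaked in the middle or late night, as a description. Hspa8 peaked at ZT19.6 ± 0.692 h (SE, n = 30) with a relative amplitude of 25.6% ± 4.75 of the mean level in control, and at ZT19.9 ± 0.939 h (n = 28) with 14% ± 3.32 in diabetic retinas. Hsp90aa1 peaked at ZT19.9 ± 0.549 h with 18% ± 2.66 and at ZT19.2 ± 0.55 h with 18% ± 2.54. Hsp90ab1 peaked at ZT19.1 ± 1 h with 12.4% ± 3.26 and at ZT18.5 ± 1.15 h with 10.2% ± 3.02. Hspa1a peaked at ZT21.4 ± 1.48 h in control and ZT22 ± 1.27 h in diabetic retinas, and Hspa1b at ZT21.3 ± 1.27 h and ZT22.8 ± 1.34 h. Their relative amplitudes were 10% ± 4.08 and 11% ± 3.56 for Hspa1a and 14.1% ± 4.95 and 12.1% ± 4.18 for Hspa1b. In control retinas both had their highest mean at ZT1, in the light phase. The edgeR test of a 24 h cosine called neither gene in control (adjusted p = 0.166 and 0.0732) or diabetic retinas (0.0871 and 0.126). It did not call Hspb1 (0.101 and 0.0599) or, in diabetic retinas, Hsp90ab1 (0.0532) either. Hsph1 peaked at ZT20.5 ± 1.04 h with 14.5% ± 4.12 in control retinas, and Dnajb1 at ZT19.8 ± 1.01 h with 13.6% ± 3.69. In diabetic retinas, where neither was called rhythmic, the amplitudes were 8.82% ± 3.01 for Hsph1 and 1.45% ± 3.95 for Dnajb1, and the acrophase of Dnajb1 had an SE of 10.6 h. That of Hsph1 was ZT0.619 ± 1.28 h, later than in control retinas by 4.11 ± 1.65 h (SE), and the test of its cosine between genotypes follows with the genotype comparison.

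**Figure D4:**
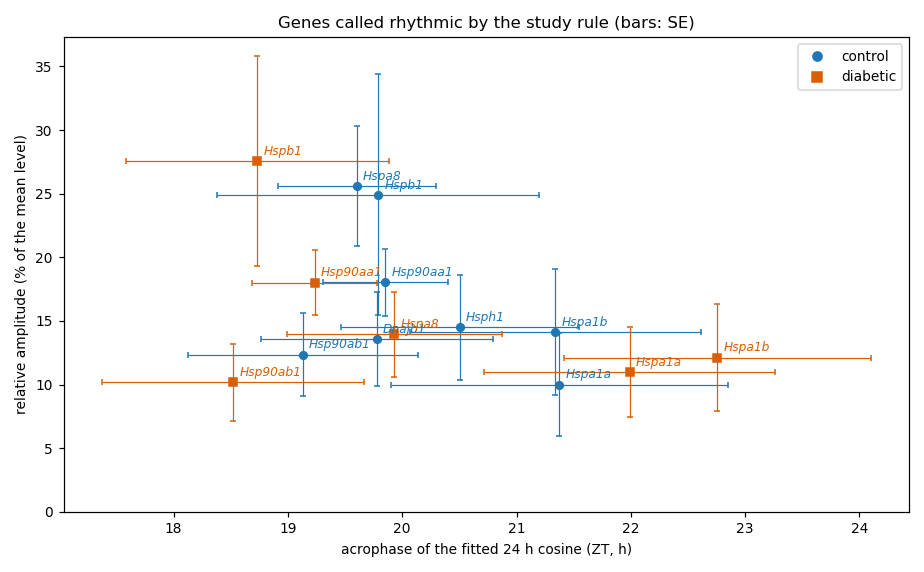
Relative amplitude (y, percent of the mean level) against acrophase (x, zeitgeber time in h) of the fitted 24 h cosine for the genes called rhythmic, 8 in control and 6 in diabetic retinas, with bars for ± 1 SE. The points of Hsp90aa1 lie level in the 2 genotypes, and that of Hspa8 is at 25.6% in control retinas and lower in diabetic retinas.

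No member differed between diabetic and control retinas after adjustment, over all times or at any time. Over all 58 libraries edgeR called 0 of 10 members, against 2.99% of all genes, and DESeq2 called 0. Without adjustment 2 members were under 0.05, as were 15.5% of all genes. The median log2 difference, diabetic minus control, was -0.08 over the members, of which 8 were below zero, and 0.00 over all genes. Among the cell markers 2 of 5 for cones were called lower in diabetic retinas, Gnat2 (-0.12, adjusted p = 0.0076) and Pde6h (-0.14, adjusted p = 0.00173). The same held for 1 of 6 for rods, Gngt1 (-0.16, adjusted p = 0.0027), 1 of 5 for microglia, Cx3cr1 (-0.23, adjusted p = 0.0448), and the lens gene Cryaa, while Chat of amacrine cells was called higher (0.20, adjusted p = 0.0404). The part of these markers in the members' differences was not tested. The lowest p belonged to Hsph1, at -0.15 ± 0.06 (unadjusted p = 0.0124, adjusted p = 0.169), followed by Hspd1 at -0.07 ± 0.03 (0.0497 and 0.321). With time point as a covariate Hsph1 passed (adjusted p = 0.0455). The widest 95% interval was that of Hspb1 (-0.43 to 0.10).

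At single times edgeR called no member either. Of all genes 0.0105% were called at ZT1, 0.0209% at the next time, ZT5, and 0.00523% at ZT9. The share was 0.167% at ZT17 and 0% at both ZT13 and ZT21. Without adjustment 1, 1, 0, 0, 2 and 0 members were under 0.05 from ZT1 to ZT21 in order, and DESeq2 called 0 at each. Of all genes 5.50% were under 0.05 without adjustment at ZT1, 6.15% at ZT5 and 8.82% at ZT17, the times with such members. DESeq2 called 1 gene of all at ZT13 and 2 at ZT21, where 852 and 892 genes were under 0.05 without adjustment in edgeR.

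The smallest p was that of Hsph1 at ZT17. All 4 diabetic libraries, at 701 to 805 normalized counts, lay below all 5 control libraries, at 863 to 1052, and the log2 difference was -0.38 ± 0.11 (unadjusted p = 0.000614, adjusted p = 0.124). Under the alternatives other than leaving out a library the adjusted p ran from 0.042 with a GC and length correction, added after seeing the data, to 0.212 without the libraries holding lens RNA. Hspa8 had a log2 difference at ZT17 of -0.31 ± 0.12 (unadjusted p = 0.0149, adjusted p = 0.392), and all 4 diabetic libraries lay below the 5 control libraries there too. At ZT5 Hspa1b had a difference of 0.31 ± 0.13 (unadjusted p = 0.0203, adjusted p = 0.708), and at ZT1 Hsp90aa1 had -0.16 ± 0.08 (0.0471 and 0.894).

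**Figure D5:**
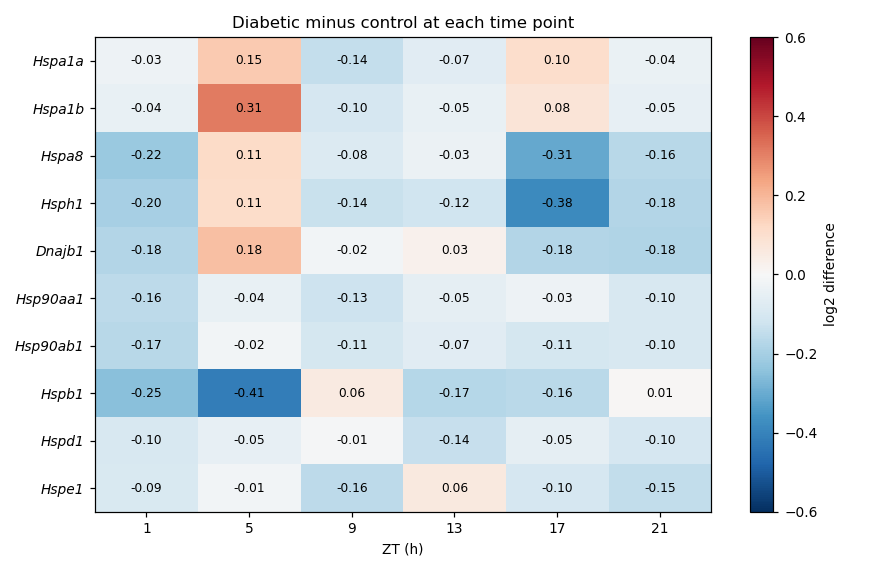
Log2 difference, diabetic minus control (colour and printed value), of each gene (rows) at each zeitgeber time (columns, in h) from the edgeR fit. Differences are mostly below zero, with -0.38 for Hsph1 at ZT17, and none passed an adjusted p of 0.05.

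Time courses were not shown to differ between genotypes. In the test of the 24 h cosine by genotype edgeR called 0 members and 0% of all genes. Hsph1 was the 1 member under 0.05 without adjustment, at 0.0396, and its adjusted p was 1. For Dnajb1 the unadjusted p was 0.0695 and for Hspa8 0.11, and DESeq2 called 0 members. The interaction of genotype with the 6 times also called 0 members and 0% of genes, with Hsph1 at an unadjusted p of 0.0404. Of all genes 657 and 514 were under 0.05 without adjustment in these tests. The calls of Hsph1 and Dnajb1 in control but not in diabetic retinas therefore do not amount to a difference between genotypes.

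Some members varied together between retinas of the same group. After the group mean of log2 counts was removed, Hspa8 and Hsp90ab1 had r = 0.89, Hspa1a and Hspa1b 0.74, and Hsp90aa1 and Hspd1 0.71 over 58 libraries. Hspd1 and Hspe1 had 0.64, whereas Hspa8 and Hspd1 had 0.0037. Over the 12 group means Hsp90aa1 had r = 0.93 with Hspa8 and 0.32 with Hspd1. Hspb1 had 0.41 with Hspa8 and 0.42 with Hsp90ab1 within groups, but -0.26 with Hspd1, -0.16 with Hspe1 and -0.07 with Hsp90aa1. All these values share libraries, depth and normalization, and Hspa1a and Hspa1b may share reads.

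The 6 other genes closest to the mean of the members' standardized log2 counts over 58 libraries were Hspa5 (r = 0.86), Mtmr4 (0.86), Stip1 (0.82), Manf (0.81), Ahsa1 (0.81) and Hyou1 (0.81). Stip1 links HSP70 to HSP90 and Ahsa1 activates the ATPase of HSP90, while Hspa5 is the HSP70 of the endoplasmic reticulum, Hyou1 an HSP110 relative there and Manf a secreted factor of that compartment. Stip1 rose between ZT5 and ZT17 by 0.55 in control and 0.37 in diabetic retinas on the log2 scale (adjusted p = 0.00017 and 0.0349). Hspa5 rose by 0.67 in control (adjusted p = 8.71e-06), and its value of 0.19 in diabetic retinas did not pass (adjusted p = 0.359).

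Other chaperone lists are given by their counts, beside which stand the 7.42% and 3.63% of all genes called higher at ZT17 in control and diabetic retinas and the 2.99% called by genotype. The test of the 24 h cosine between genotypes called 0 genes of each list, so counts that differ between control and diabetic retinas do not amount to a difference between genotypes. None of the 4 genes for heat shock factors and their binding protein passed the test of time in either genotype, and Hsf1, the main activator, had a ZT17 minus ZT5 log2 difference of 0.15 in control (adjusted p = 0.361). Of 6 other cytosolic HSP70 and HSP110 genes 0 passed. Of 10 J-domain genes 3 were higher at ZT17 in control and 3 in diabetic retinas and none lower, with log2 differences in control and diabetic retinas for Dnajb2 (0.53 and 0.38), Dnajc5 (0.23 and 0.31), the synaptic vesicle chaperone, and Dnaja4 (0.31 and 0.29). Among 8 genes for exchange factors, a ubiquitin ligase and the HSP70 cofactor St13, 2 rose in control and 1 in diabetic retinas. St13, which bridges HSP70 and HSP90, rose in both (0.32 and 0.26).

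Among 11 HSP90 co-chaperones 5 rose in control and 2 in diabetic retinas, and Fkbp5, a glucocorticoid-induced immunophilin, was the 1 gene called higher in diabetic retinas over all times (0.23 ± 0.05, adjusted p = 0.0056). Mitochondrial chaperones and proteases gave 1 rise among 9 in control retinas, that of Clpb (0.22), and 0 in diabetic retinas. The 8 subunits of the chaperonin TRiC gave 1, Cct5 (0.19), and 0. Of 4 other small heat shock proteins Cryab was called, higher at ZT17 in control and lower in diabetic retinas over all times, and it had 4944 to 6197 normalized counts in the 3 libraries with lens RNA against at most 504 in the others. Chaperones of the endoplasmic reticulum gave 9 rises among 13 in control (7.42% of all genes) and 0 in diabetic retinas (3.63%), with 0 called by the cosine test between genotypes, and 4 were lower in diabetic retinas over all times (2.99% of all genes were called, in either direction). The median ZT17 minus ZT5 log2 difference of that list was 0.38 in control and -0.02 in diabetic retinas.

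Of the cold-inducible RNA-binding genes, whose transcripts rise in cooled cells, Cirbp fell between ZT5 and ZT17 in both genotypes. Its log2 difference was -0.66 ± 0.08 in control (adjusted p = 5.2e-08) and -0.38 ± 0.09 in diabetic retinas (adjusted p = 0.00409). Rbm3 had -0.21 and -0.12, which did not pass (adjusted p = 0.0804 and 0.497), though its test over 6 times did (adjusted p = 6.27e-05 and 0.000128). Of 8 immediate early genes 4 rose in control and 2 in diabetic retinas (7.42% and 3.63% of all genes), among them Nr4a1 in both (1.24 and 1.12). Over all times 2 of the 8 were lower in diabetic retinas, Fos (-0.72, adjusted p = 0.00866) and Egr1 (-1.06, adjusted p = 0.031), named after their values were seen. No temperature of the mice or the tissue is among the labels.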

How the data were processed

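The members and the gene lists were chosen with earlier results of these data known. The deposited table holds raw counts per gene symbol, which the authors made with STAR 2.7.4a on GRCm38.p5 with Gencode M15 and with HTSeq 0.11.1, after FastQC. Their normalization by DESeq2 1.26.0 was repeated here with DESeq2 1.42.0 size factors. Reads per library, 7773117 to 22147398, limit the precision of low genes such as Hspb1. Genes were tested with edgeR 4.0.16 (TMM, quasi-likelihood F tests) in R 4.3.3, as genotype alone, as 12 groups of genotype and time, or with a 24 h cosine, and p-values were adjusted by Benjamini-Hochberg over 19120 genes. Empirical JTK was written anew, with 6 phases, 5 widths and 1000000 shuffled series, and the study's minimum fold. Acrophases came from least squares.

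All 10 members are named, with the 6 genes closest to their mean. Up to 3 genes of each other list with the smallest p for time of day are named too. Cell markers called by genotype were named for that call, after their values were seen, as were Fos and Egr1. Locations and lengths came from Gencode M21 on GRCm38.p6, whose chromosomes are those of GRCm38.p5. The code was tested on simulated data. Libraries of a group were all different (lowest chi-square per degree of freedom 1.94 over 113 pairs).

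Alternatives were DESeq2, its size factors in edgeR, no filter on low counts, the replicate number as a block, time point as a covariate, and each library left out, with dispersions kept from all 58. Corrections for GC and length, and fits without the libraries that stood apart, those with lens RNA, or ZT17 were added after seeing the data.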

Additional observations from a re-analysis of the deposited data

Results flagged for a closer look

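Of 120 sets of normalized counts, each 1 gene in 1 group, 8 held a library far from the others, where chance gives about 1 in 20. Control ZT1 replicate 6, which held lens RNA, was highest for Hspa8 (8567 against 6494 to 6856) and for Hsph1 (1051 against 864 to 896). Control ZT9 replicate 5 was highest for Hsp90aa1 (13028 against 9881 to 10554) and Hspd1 (1109 against 858 to 927). Control ZT5 replicate 1 was lowest for Dnajb1 (508 against 621 to 683). Hspd1 was lowest in control ZT1 replicate 4 (819 against 1003 to 1018) and in diabetic ZT13 replicate 5 (632 against 871 to 901), and highest in diabetic ZT21 replicate 1 (989 against 856 to 889).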

How the results depend on the processing

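Counts of the 10 members called were as reported with DESeq2 size factors in edgeR, at 7 and 4 for time of day in control and diabetic retinas and 7 and 2 for ZT17 minus ZT5. DESeq2 and the replicate block each gave 8 and 5, and 7 and 3, and 0 for genotype. The block added Hspb1 for time of day in control (adjusted p = 0.0332), Hspa1b in diabetic retinas (0.0325) and the diabetic rise of Hspa8 (0.0362). Deviations from group means had r over 0.1 in 15 of 26 same-numbered pairs of a time point (median 0.11) and in 17 of 114 other pairs (median -0.026), and 25 of 52 libraries correlated best with their own number. Same-numbered pairs were thus over 0.1 more often than other pairs, but not in every case. The number was therefore used as a block in an alternative only. The labels do not say what the numbers stand for, and whether they mark shared handling was not tested. Other counts moved. Diabetic minus control gave 1 (Hsph1) with time point as covariate, and 1 at ZT17 with the GC and length correction. Time of day in diabetic retinas gave 1 without ZT17, and 1 to 5 with 1 library left out (1 without diabetic ZT17 replicate 3, 2 without diabetic ZT13 replicate 5). ZT17 minus ZT5 gave 4 in control retinas and 1 in diabetic retinas without the libraries apart on component 1. In diabetic retinas it gave 1 with no filter, and 1 to 3 with 1 library left out. Rhythms gave 2 and 2 by adjusted p, and 5 and 2 by the edgeR cosine test, in control and diabetic retinas. Signs turned only for differences that no test called. Hspa1a, diabetic minus control, was -0.00033 with the time covariate, -0.021 with the GC correction, -0.011 without ZT17 and -0.0087 to 0.023 with 1 library left out. Hspe1, ZT17 minus ZT5 in control, was 0.030 with the GC correction, 0.17 without the libraries apart on component 1, and -0.11 to 0.085 with 1 library left out. That of Hspd1 was -0.070 to 0.079 in control and -0.014 to 0.080 in diabetic retinas, and that of Hsph1 -0.010 to 0.055 in diabetic retinas. The GC correction also ended the control rises of Hspa1a (adjusted p = 0.163) and Hspa1b (0.0526), and the call of Hspa1a for time of day in both genotypes (0.0897 and 0.051). Of all genes, 572 differed by genotype, but 919 with the time covariate, 921 with the GC correction and 239 without ZT17. For time of day 1733 and 1948 fell to 702 and 1089 without ZT17, and the diabetic count was 3094 with the GC correction. ZT17 minus ZT5 gave 2884 in control, but 1051 without the libraries apart on component 1, and 1373, 1769 and 1839 without control ZT17 replicate 3, ZT17 replicate 1 or ZT5 replicate 1. In diabetic retinas 1407 fell to 881 and 890 without ZT17 replicate 5 or 3. At ZT17 genotype gave 32, and 3 to 143 under the alternatives. Rhythms gave 4172 and 4565, or 1573 and 1967 by adjusted p, and 2532 and 2710 with the fold taken between time point means. Depth limits Hspb1 most. The causes were not tested.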
